A study of Mus musculus with 2 samples.

Results

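The enzymes and transporters that build and sulfate glycosaminoglycan chains were followed in mouse primary chondrocytes before mechanical loading and 24 h after it. The group is a list of 34 genes: 5 enzymes of the tetrasaccharide linker, 6 of chondroitin chain formation, 9 of chondroitin and dermatan sulfation and epimerisation, 7 of heparan sulfate, 4 of sulfate supply and 3 of sugar supply. A gene was included when a spot other than a control spot carried one of its RefSeq transcript accessions. This held for 33 of the 34, out of 20660 genes matched on the arrays in the same way; Slc35b2, the Golgi transporter of activated sulfate, had no matched spot. All 33 were well above background on both arrays, as were 14231 of the 20660 genes.

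RNA came from primary chondrocytes of 6-day-old C57BL/6J mice, seeded in fibronectin-coated stretch chambers for 48 h and then stretched in cycles for 30 min (10% elongation, 0.5 Hz). There were 2 groups of 1 one-colour array each, before loading and 24 h after loading, which shared a slide. With 1 array per group there is no replicate error, and differences are given without a test. The earlier array is the only control: without an unloaded 24 h array in the comparison, strain cannot be told apart from the extra 24 h in culture.

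Proteoglycans carry long sulfated sugar chains on a core protein, and in cartilage the chondroitin sulfate chains of aggrecan hold the water that resists compression. Every chondroitin or heparan chain starts with the same short linker on a serine. The chain is then committed to chondroitin or heparan by the first hexosamine added, elongated in the Golgi from UDP-sugars, and sulfated from the activated sulfate PAPS (3'-phosphoadenosine 5'-phosphosulfate). Human and mouse mutations in several of these genes cause skeletal dysplasia.

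Most of the pathway stayed close to its level before loading, as did most detected genes. Of the 33 measured genes, 1 exceeded 2-fold upward at 24 h and 0 exceeded it downward, against 0.668% and 1.83% of all detected genes. Chst13, a chondroitin 4-O-sulfotransferase with a dim spot, was the gene past 2-fold, and it was also the only one past 1.5-fold in either direction. Among all detected genes 3.65% were past 1.5-fold upward and 5.84% downward. The log2 ratio (24 h after minus before loading, each array set relative to its 75th percentile of intensity) was above 0 in 22 of the 33, or 66.7%, compared with 47.6% of all detected genes. Its median was 0.12 over the 33 genes and -0.01 over all detected genes.

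The within-array error, combined on the log2 scale from the errors that the scanner software gives both spots, lay between 0.20 and 0.28 for these genes. It covers within-array error only. Its median was 0.204 over these genes, against a lowest value of 0.204, and 0.204 over all detected genes. The error was thus nearly the same for most genes, and a threshold in errors acted nearly as a fixed cutoff on the log2 ratio. For 18 of the 33 the log2 ratio was within 1 such error of 0, as it was for 8059 of the 14231 detected genes. These shares are close, so this count does not set the group apart. A total of 6 genes were more than 2 errors above 0 (Ndst1, Extl2, Chpf, Chst12, Chst11 and Chst13) and 1, Chst7, was more than 2 errors below, while 7.64% and 9.4% of all detected genes were. This second threshold was chosen after the values were seen. A median scaling of the arrays raised every log2 ratio by 0.10. Under it 26 of the 33 genes were above 0, along with 63.1% of all detected genes, so the counts above 0 depend on the scaling. The median of the 33 genes minus that of all detected genes was 0.14 in the main setting and lay between 0.11 and 0.15 under the other settings run.

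**Figure D1:**
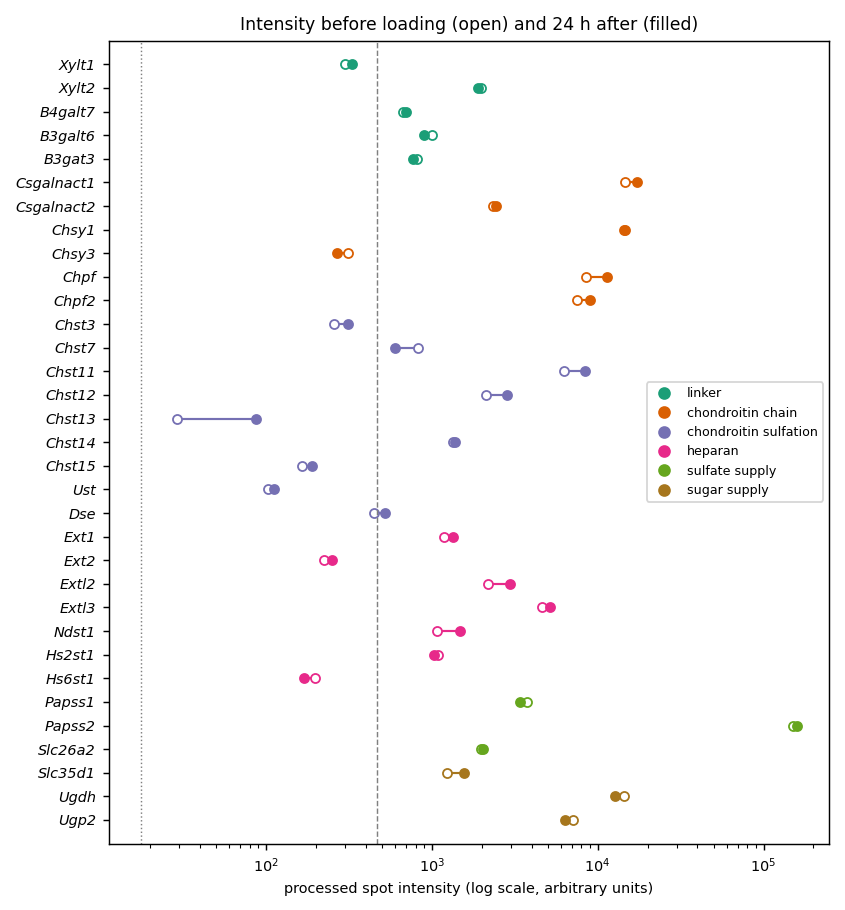
Processed spot intensity (log axis, arbitrary units) of the 33 measured genes before loading (open) and 24 h after (filled), coloured by step. The dashed line marks the 75th percentile of the array before loading (466) and the dotted line the dimmest spot well above background on the array after loading (17.8). Chst13 lies nearest the dotted line, and most pairs of points nearly overlap.

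**Figure D2:**
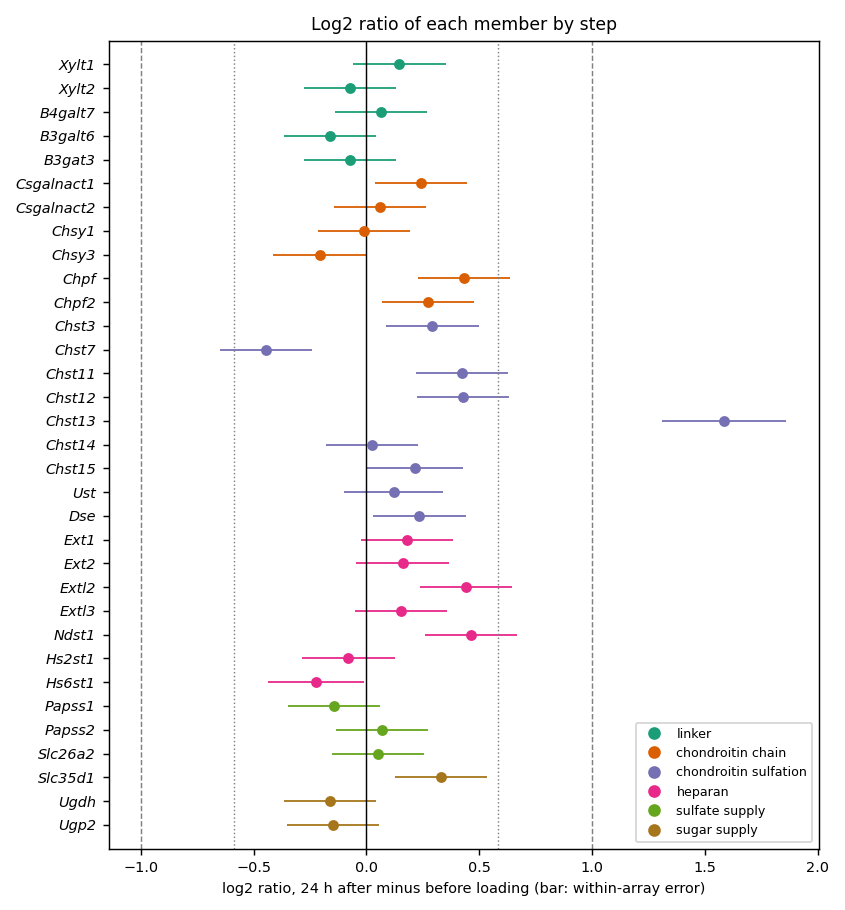
Log2 ratio of each measured gene, 24 h after minus before loading, with the within-array error as a bar. Dotted lines mark 1.5-fold and dashed lines 2-fold. Chst13 (1.59) lies beyond 2-fold and the other 32 genes lie between -0.45 and 0.46.

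The linker enzymes showed the narrowest spread among the steps with at least 5 genes. Their log2 ratios lay between -0.16 and 0.14, all 5 within 1 within-array error of 0, with a median of -0.07. Xylt1 and Xylt2, the xylosyltransferases that prime the core protein, had intensities of 301 and 333 (Xylt1) and of 1991 and 1891 (Xylt2) before and after loading. A second probe of Xylt2 gave a log2 ratio of -0.12 beside -0.07 on the brighter one. B4galt7, which adds the first galactose, went from 675 to 706, a log2 ratio of 0.07. B3galt6, which adds the second, went from 1001 to 894 (-0.16). B3gat3 closes the linker with glucuronic acid, and its intensity was 818 before and 776 after loading (-0.07). The sign of the small differences of Xylt2 and B3gat3 depended on the scaling, since both turned above 0 with median and spike-in scaling.

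Chondroitin chain formation showed its higher values in the polymerizing factors rather than in the synthases. Chpf, a cofactor of the synthases in chain polymerization, had 8506 on the earlier array and 11460 on the later one (0.43, or 1.35-fold). Its relative Chpf2 went from 7486 to 9040 (0.27), and a dimmer probe of Chpf2 gave 0.43, so that the probes had the same direction. The synthase Chsy1, which adds both sugars of the repeat, had 14555 and 14418 (-0.01, and -0.06 on its second probe). Chsy3, a second synthase, had 313 and 271, a log2 ratio of -0.21, just beyond 1 within-array error. Csgalnact1 and Csgalnact2 start the chain by adding the first N-acetylgalactosamine. Csgalnact1 went from 14575 to 17220 (0.24) and Csgalnact2 from 2336 to 2434 (0.06). The median of these 6 genes was 0.15. Chsy1 changed sign under each of the 4 other scalings and under normexp background correction.

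The sulfation step had the highest median of the 6 steps in all settings run, 0.23 as reported over 9 genes, of which 8 were above 0. This is the value of the epimerase Dse. The heparan step followed with 0.16, a lead smaller than the within-array error. With normexp correction the medians of both steps were 0.22 and 0.21. Without Chst13 the median was 0.22. The chondroitin 4-O-sulfotransferases, which sulfate N-acetylgalactosamine at carbon 4 as in the main chains of growth plate cartilage, were all above 0. Chst11 (chondroitin 4-O-sulfotransferase 1) went from 6272 to 8404, a log2 ratio of 0.42 or 1.34-fold. Chst12 (4-O-sulfotransferase 2) went from 2125 to 2860, with nearly the same ratio (0.43, 1.35-fold). Both ratios were a little over 2 within-array errors. They stayed above 0.30 under all settings run, with the lowest value, 0.31, for Chst12 under normexp correction.

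Chst13 (4-O-sulfotransferase 3) was the exception in size, with 29.3 before and 87.8 after loading. Its log2 ratio was 1.59 (3.0-fold), and the within-array error was 0.28. The earlier value is close to the detection limit, since the dimmest spots called well above background had 17.3 on the earlier array and 17.8 on the later one. A second probe of the same transcript stayed near background on both arrays, at 4.27 and 4.05, and had a log2 ratio of -0.08. With normexp correction, which adds an offset of 50 to the corrected intensities, the log2 ratio of Chst13 was 0.72 and no longer past 2-fold. An offset of that size shrinks the ratio of so dim a spot by itself. The lower value therefore does not test the difference. Among detected genes below the 75th percentile, where Chst13 lies, 1.2% were more than 2-fold higher. That group also holds genes far brighter than Chst13, and the share among genes as dim as Chst13 was not computed.

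The 6-O-sulfotransferases, which sulfate carbon 6 instead, did not share a direction. Chst7 had the lowest log2 ratio of the group, with 825 before loading and 606 at 24 h (-0.45, within-array error 0.20), which is 0.734 of the level before. Chst3, the main chondroitin 6-O-sulfotransferase, was at 257 and 315 (0.29). Chst15 adds a second sulfate to a 4-sulfated unit, and its intensity was 165 and 191 (0.21) on the probe above background. Its other probe, at 5.31 and 17.4, was not well above background. Of the dermatan enzymes, Dse, the epimerase that turns glucuronic into iduronic acid, had 448 and 527 (0.23). Chst14, the dermatan 4-O-sulfotransferase, had 1354 and 1375 (0.02). Ust, the uronyl 2-O-sulfotransferase, had 104 and 113 (0.12).

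The promoter sequences of the 3 chondroitin 4-O-sulfotransferases, of Chpf and of Chst7 are shown because these genes had the largest differences within the chondroitin steps and differ in direction. Each is the 250 bases before the RefSeq start site on GRCm38.p6, 5' to 3' on the strand of the gene. Capitals mark the GC box (GGGCGG) and the cAMP response element (TGACGTCA) on either strand, and the matches of both motifs do not overlap.
Chst11, chr10:82985247-82985496, forward strand: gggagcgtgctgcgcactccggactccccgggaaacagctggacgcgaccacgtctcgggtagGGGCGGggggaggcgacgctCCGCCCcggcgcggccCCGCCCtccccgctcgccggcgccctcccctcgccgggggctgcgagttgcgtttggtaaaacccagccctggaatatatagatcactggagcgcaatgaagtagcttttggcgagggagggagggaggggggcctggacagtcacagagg
Chst12, chr5:140505359-140505608, forward strand: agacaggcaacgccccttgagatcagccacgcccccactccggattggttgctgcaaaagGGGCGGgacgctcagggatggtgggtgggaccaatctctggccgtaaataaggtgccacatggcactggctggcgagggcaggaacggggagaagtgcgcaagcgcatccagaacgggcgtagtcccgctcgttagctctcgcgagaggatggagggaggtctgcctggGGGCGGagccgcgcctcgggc
Chst13, chr6:90325186-90325435, reverse strand: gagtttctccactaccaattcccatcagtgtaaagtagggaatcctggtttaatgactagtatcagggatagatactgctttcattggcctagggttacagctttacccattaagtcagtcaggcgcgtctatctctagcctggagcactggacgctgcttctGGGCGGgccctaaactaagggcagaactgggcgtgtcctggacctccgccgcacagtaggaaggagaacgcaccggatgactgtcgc
Chpf, chr1:75479472-75479721, reverse strand: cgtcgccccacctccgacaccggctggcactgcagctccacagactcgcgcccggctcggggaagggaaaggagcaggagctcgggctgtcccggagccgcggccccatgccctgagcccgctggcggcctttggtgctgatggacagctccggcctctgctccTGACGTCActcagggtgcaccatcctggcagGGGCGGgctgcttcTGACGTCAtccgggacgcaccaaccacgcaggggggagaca
Chst7, chrX:20059320-20059569, forward strand: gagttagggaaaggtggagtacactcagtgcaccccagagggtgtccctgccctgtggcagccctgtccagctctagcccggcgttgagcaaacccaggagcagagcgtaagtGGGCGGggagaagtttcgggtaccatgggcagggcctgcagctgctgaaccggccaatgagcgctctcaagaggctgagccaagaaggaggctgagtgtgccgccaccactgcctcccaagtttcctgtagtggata
Chst11 held 3 GC boxes, Chst12 held 2, and Chst13, Chpf and Chst7 held 1 each, so that this motif was present at genes of both directions. Across the RefSeq table, 21 of the 27 members with a promoter entry had a GC box in these 250 bases. Counted by entry it was 23 of their 34 entries (67.6%), against 32.7% of all 32851 entries. The promoters of the members were also richer in G and C, with a median of 64.2% against 52.4%. Chpf held the cAMP response element at 2 positions and was the only one of the 27 members with an entry to hold it. That is 2.94% of their 34 entries, against 1.55% of all entries. The cAMP response element was searched after this sequence had been seen. The letters AACAAT, found in many SOX binding sites, were in 5.88% of the entries of the members and in 9.42% of all entries. CACGTG, an E-box, was in 11.8% and 6.02%. TATAAA was in 0 of the 34 entries and in 12.4% of all. These are letters in a window, and binding was not tested.

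**Figure D3:**
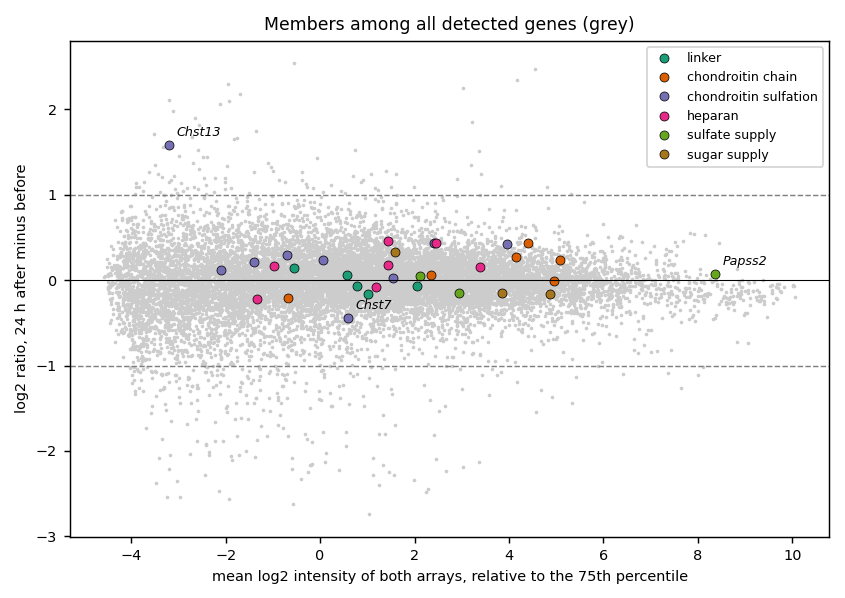
Log2 ratio against the mean log2 intensity of both arrays relative to the 75th percentile, with the measured genes coloured by step over all 14231 detected genes in grey. Chst13 stands among dim genes, where the grey cloud is widest, and Papss2 lies at the right end.

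Of the 7 heparan sulfate genes 5 were above 0, with Ndst1 and Extl2 the highest. The 4 members of the exostosin family were all above 0, with a median log2 ratio of 0.17. Extl2, a transferase that acts on the linker, went from 2179 to 2956 (0.44, or 1.36-fold). Extl3, which adds the first N-acetylglucosamine and so commits the chain to heparan, went from 4629 to 5149 (0.15). Ext1 and Ext2 form the polymerase. Ext1 was at 1189 and 1345 (0.18), and Ext2 at 223 and 250 (0.16). All but Extl2 were within 1 within-array error of 0.

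Among the heparan sulfotransferases, Ndst1 starts modification by replacing N-acetyl with N-sulfate groups. It went from 1079 to 1489, a log2 ratio of 0.46 or 1.38-fold, the highest value after Chst13. The dimmer probes of Ndst1 gave 0.07 and 0.55, a range of 0.49. Genes with several detected probes had a median range of 0.19, so the probes of Ndst1 disagreed more than those of most genes. The mean over its probes gave 0.36. Hs2st1, the uronyl 2-O-sulfotransferase of heparan, had 1093 and 1034 (-0.08). Hs6st1, a glucosaminyl 6-O-sulfotransferase, had 198 and 170 (-0.22). The median of the 7 heparan genes was 0.16.

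The 3 measured genes of sulfate supply lay within 1 within-array error of 0 as reported. Papss2, the PAPS synthase whose loss causes brachymorphism in mice, was at 150861 before and 158360 after loading (0.07). Papss1, the other PAPS synthase, had 3769 and 3406 (-0.15). Slc26a2, the plasma membrane sulfate transporter mutated in diastrophic dysplasia, had 1975 and 2044 (0.05). The median of the 3 genes was 0.05. Under other settings Papss2 reached 0.23 (quantile normalization) and 0.22 (loess), and Papss1 -0.21 (normexp correction), each beyond the error of 0.20.

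The median of sugar supply was -0.15 over 3 genes, which is the value of Ugp2, and it was -0.05 with the mean over probes. Ugp2 makes UDP-glucose, and its intensity was 7067 and 6376 (-0.15), while its second probe gave 0.05. Ugdh oxidises UDP-glucose to UDP-glucuronic acid and had 14371 and 12826 (-0.16). Slc35d1, the Golgi and endoplasmic reticulum transporter of UDP-glucuronic acid and UDP-N-acetylgalactosamine, differed from both with 1241 and 1562, a log2 ratio of 0.33. Its error was 0.20.

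The steps also differed in how many of their spots were bright, although the brightness of a spot depends on its probe as well as on the transcript, and levels of different genes are therefore not ranked. Mean intensity was above the 75th percentile in 4 of 5 linker genes, 5 of 6 genes of chain formation, 5 of 9 of sulfation, 5 of 7 of heparan and all 3 measured genes of sulfate and of sugar supply. In all, 25 of 33 genes (75.8%) were above it, against 60.2% of detected genes. Of these 25 genes, 16 had a log2 ratio above 0, or 64.0%, compared with 49.4% of all detected genes above the 75th percentile.

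Other genes of the pathway mostly lay within 1.5-fold as well, as did most detected genes. Of all detected genes 3.65% were more than 1.5-fold higher and 5.84% lower. In a list of 18 genes of glycosaminoglycan breakdown, all 18 were detected, 13 were above 0 and the median log2 ratio was 0.24. Hpse, the heparanase, was the only one past 1.5-fold, with 149 before loading and 79.1 at 24 h (-0.91). The kinase and the phosphatase of linker xylose differed in direction, with Fam20b at 1235 and 1136 (-0.12) and Pxylp1 past 1.5-fold at 721 and 1100 (0.61). B3gat1, a glucuronosyltransferase outside the linker, was listed with them and had 0.45, and B3gat2 was not detected. Further heparan enzymes had a median of 0.04 over 9 of 15 detected genes, and Hs3st6, a 3-O-sulfotransferase, was past 1.5-fold (140 and 92.4, -0.60). For the keratan sulfate enzymes the median was 0.20 over 9 of 10 genes, of which 7 were above 0. Chst5, a sulfotransferase acting on N-acetylglucosamine, had 283 and 479 (0.76). The other Chst genes in this list did not share a direction, with Chst1 at 575 and 387 (-0.57) and Chst2 at 238 and 298 (0.33). Among 19 detected genes of further sugar and PAPS supply 0 were past 1.5-fold, with a median of 0.08.

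The proteins that carry the chains had a median log2 ratio of 0.13 over 24 of 27 detected genes. Ogn, osteoglycin, was 2-fold higher with 13081 and 26390 (1.01), and Bcan, brevican, was past 1.5-fold with 141 and 215 (0.62). Acan, the main chondroitin sulfate carrier of cartilage, had 71350 and 89998 (0.34) and stayed within 1.5-fold. No core protein in the list was more than 1.5-fold lower, against 5.84% of all detected genes.

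**Figure D4:**
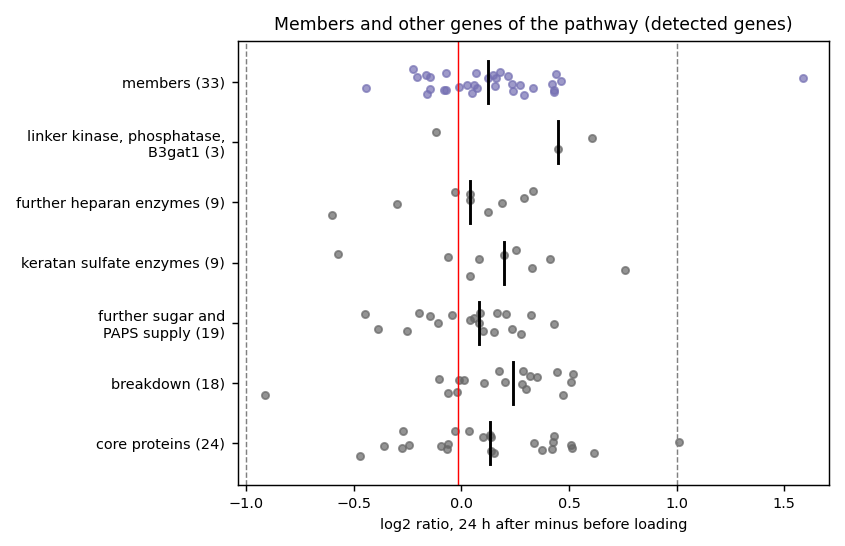
Log2 ratio of each detected gene, 24 h after minus before loading, for the members and 6 lists of other genes of the pathway, with the number of genes in parentheses. Black bars are medians and the red line is the median of all detected genes (-0.01). The medians of all 7 sets lie to the right of the red line, and that of the 3 genes with the linker kinase and phosphatase is the value of B3gat1.

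**Figure D5:**
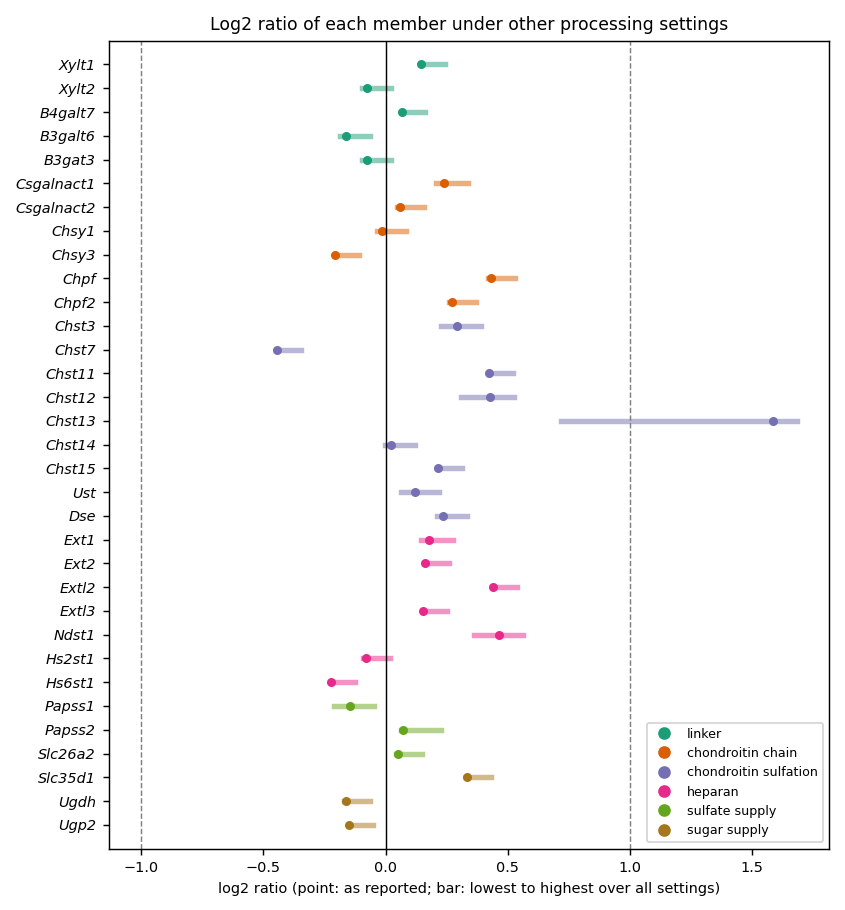
Log2 ratio of each measured gene as reported (point) and its lowest to highest value over 10 other processing settings (bar). Chst13 has the widest bar, from 0.72 to 1.68, and crosses 2-fold.

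The label of the cells was checked against markers. All 15 chondrocyte markers were well above background on both arrays, with a median log2 ratio of 0.08, and Chad (-0.86) and Col11a1 (-0.82) were more than 1.5-fold lower. Most hypertrophic markers were lower, with a median of -0.63 over 10 genes and 6 past 1.5-fold, led by Ibsp (-2.06), Col10a1 (-1.54), Ihh (-1.30) and Alpl (-0.89), but Mmp13 (0.49) and Pth1r (0.06) were above 0. Most adipocyte markers were higher, with 5 of 7 detected genes past 1.5-fold, led by Adipoq (2.29), Cfd (1.98), Plin1 (1.01) and Fabp4 (0.95), while Pparg (-0.27) was lower and Cebpa (0.11) was close to 0. Their summed intensity was 2683 before loading and 4013 at 24 h. Macrophage markers had a median of 0.15 over 8 detected genes, with Ptprc past 2-fold (1.14). Of these 8, 2 were above the 75th percentile, Itgam (25496 before and 24759 after loading) and Csf1r (3646 and 3288). Endothelial markers had a median of -0.14 over 4 detected genes. Of these 4, 2 were above the 75th percentile, Kdr (12774 and 12375) and Egfl7 (1632 and 1380). Cdh5, Tek, Emcn and Esam were not well above background. Skeletal muscle markers had Tnni2 (-0.79) and Tnnt3 (-0.78) lower and Myh8 (1.15) and Myh3 (0.64) higher among 6 detected genes. Of these 6, 2 were above the 75th percentile, Tnni2 (3348 before and 1940 after loading) and Acta1 (1001 and 806). Mylpf, Ckm, Des and Actn2 were not well above background. Erythroid, osteoblast and fibroblast markers had medians of -0.11, -0.19 and -0.01, with Sp7 (-0.64), also in the hypertrophic list, past 1.5-fold. All 10 fibroblast markers were detected, 9 of them above the 75th percentile, as were 14 of the 15 chondrocyte markers. Detection alone therefore does not tell these cell types apart here. The part of other cell types in the differences of the glycosaminoglycan genes was not tested, and a change in the share of a cell type cannot be told apart from a change per cell. None of the 33 spots had 3 or more spots within 100 µm that changed more than 2-fold in its own direction.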

How the data were processed

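The members, steps and lists were chosen with earlier results of these data known. The authors deposited, per the file headers, one-colour intensity values from Agilent Feature Extraction 10.10.1.1, background-subtracted within each array and not normalized between arrays, with the software's error and flags; the deposited value table holds the same intensity values within 0.497%. Outlier spots (141 and 138 by the software's flags) were dropped from both arrays, spots of one probe were averaged as log2 intensity, and each array's 75th percentile was subtracted (55678 probes). Accessions without versions were named through the RefSeq table of GRCm38.p6 (27235 probes). The brightest probe stood for a gene, and a gene was detected when it was well above background on both arrays. Of the 59305 spots, 59.1% and 57.7% were well above background, and 0 were saturated. The number of arrays limits the precision.

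Every member is named, and of each other list at most 4 genes more than 1.5-fold higher and 4 lower. Acan, Fam20b, B3gat1, Pparg, Cebpa, Mmp13, Pth1r and the genes not above background were named outside this rule, after their values were seen. So were Itgam, Csf1r, Kdr, Egfl7, Acta1, Chst1 and Chst2. A total of 10 alternatives were computed. Normexp (offset 50), quantile and loess used limma 3.58.1 (R 4.3.3), and all else used Python 3.11.15. The code was tested on simulated data with shifts larger than any difference of the members, so recovery of smaller differences was not tested. Promoter sequences are RefSeq's; 27 members matched.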

Additional observations from a re-analysis of the deposited data

How the results depend on the processing

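No paired analysis was possible because each time point had a single array. The settings were median, quantile, loess and spike-in scaling, normexp correction on the median spot intensity (the mean was foreseen, and the files used hold the median), the deposited value table, the mean over probes, detection on at least 1 array, no filter on dim probes, and leaving out spots with 3 or more neighbours changed the same way. The count of members more than 2-fold higher was 1, and it was 0 with normexp correction, since Chst13 then had a log2 ratio of 0.72. The offset of 50 in that correction shrinks the ratio of a spot as dim as Chst13 by itself. Chosen after seeing the data, leaving out Chst13 gave 0 members past 2-fold and 0 past 1.5-fold higher, and counting by 2 within-array errors gave 6 higher and 1 lower in place of 1 and 0. The medians of the 6 steps moved by less than the within-array error under all 10 settings; that of the linker genes lay between -0.09 and 0.02, that of sulfation between 0.22 and 0.33, and that of sugar supply between -0.15 and -0.05, above the linker median with the mean over probes. Of the 33 members, 4 changed sign with median and with spike-in scaling (Xylt2, B3gat3, Chsy1 and Hs2st1), 1 with quantile normalization and with loess (Chsy1) and 2 with normexp correction (Chsy1 and Chst14); each of these lay within 1 within-array error of 0. The signal of Chst13 over background limits its ratio.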
